A study of Mus musculus with 8 samples.

Results

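The 40 genes described here drive or mark cell division, and their levels were followed in the pancreas of mice with and without fatty acid ethyl ester severe acute pancreatitis (FAEE-SAP). They were chosen by name, from a list of cyclins, cyclin-dependent kinases, replication factors and mitotic genes, among the 48709 genes listed in each library. Whole pancreatic RNA was sequenced from 4 groups of male mice aged 8 weeks, with 2 libraries in each group, taken 24 hours after injection. WT mice received saline or palmitoleic acid (POA) with ethanol i.p., which is the FAEE-SAP model, and cKO mice received the same. In cKO mice, which carry floxed *Pfkfb3* on a C57BL/6J background and *Pdx1*-Cre, Cre deletes exons 2 and 3 of *Pfkfb3*, a regulator of glycolysis, in cells of the *Pdx1* lineage, which take in acinar, duct and islet cells but not immune, vessel or stromal cells. WT mice were bought from a supplier and cKO mice were generated for the study, so genotype and source cannot be told apart. All mice were fasted beforehand. According to the methods, buprenorphine was given with the first dose of POA and ethanol, so these agents cannot be told apart either. No label states that the libraries of a group came from separate mice, and the p-values below measure the spread between these libraries, which may be technical.

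A dividing cell passes through 4 phases. D-type cyclins with CDK4 and CDK6 act in G1, and cyclin E with CDK2 carries the cell into S phase, where E2F factors raise transcription of the replication genes. The MCM2 to MCM7 helicase is loaded on origins by CDC6 and CDT1, PCNA clamps the polymerase on DNA, and ribonucleotide reductase and thymidylate synthase supply nucleotides. Cyclins A and B with CDK1, the Aurora and Polo kinases, the spindle proteins and topoisomerase II then carry the cell through G2 and mitosis. Adult acinar cells are mostly quiescent, and in injured pancreas acinar, stromal and immune cells can each divide. In bulk tissue, fewer cells of a type and less RNA per cell cannot be told apart.

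Library totals were 22.8 to 37.6 M reads, worked out from the deposited values, and 1 read on a transcript of 2 kb was worth 0.0133 to 0.0219 RPKM (reads per kilobase of exon, relative to library size). Between-library scaling by the median of ratios divided the values by 0.621 to 2.02. Summed scaled RPKM of 8 acinar markers was 142958 to 173303 in WT saline, 203891 to 204472 in cKO saline, 53797 to 54039.8 in WT FAEE-SAP and 125994 to 146061 in cKO FAEE-SAP. Scaled RPKM of *Pfkfb3* was 1.69 to 1.70 in WT saline, 0.880 to 2.10 in cKO saline, 1.85 to 3.21 in WT FAEE-SAP and 1.74 to 2.82 in cKO FAEE-SAP. A value per gene cannot show the loss of 2 exons, so *Pfkfb3* does not check the genotype labels. Of all 11133 genes that could be tested, with at least 0.5 RPKM in at least 2 of the 8 libraries, 374 were higher and 459 lower with FAEE-SAP in WT by the call used here, a Benjamini-Hochberg adjusted p under 0.05 in limma and at least a 2-fold change.

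Most of the 40 genes were expressed at low levels in pancreas, whatever the group. In scaled RPKM, which is per length and can be compared between genes, 27 of 40 were under 1 and 22 of 40 under 0.5 in every library. The 2 that were at least 2 in every library were *Pcna*, the replication clamp, and *Cdk4*, the kinase of D-type cyclins. Of the 19 mitotic genes, all were under 0.7 in every library, and their values rested on a median of 13.9 reads per gene and library. The lowest entry was *Cdc6*, a loader of the MCM helicase, listed at 0 in WT saline 1, where 3 reads would have given 0.0279 scaled RPKM, and 0.0124 to 0.132 in the other 7 libraries. By role, the median of member medians was highest for G1 genes (2.37) and lowest for the mitotic roles (0.108 and 0.117), as the plot of levels shows. Between them lay clamp and nucleotide genes (1.06), licensing and MCM genes (0.693) and G1/S genes (0.196), so levels did not follow the order of the phases.

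**Figure D1:**
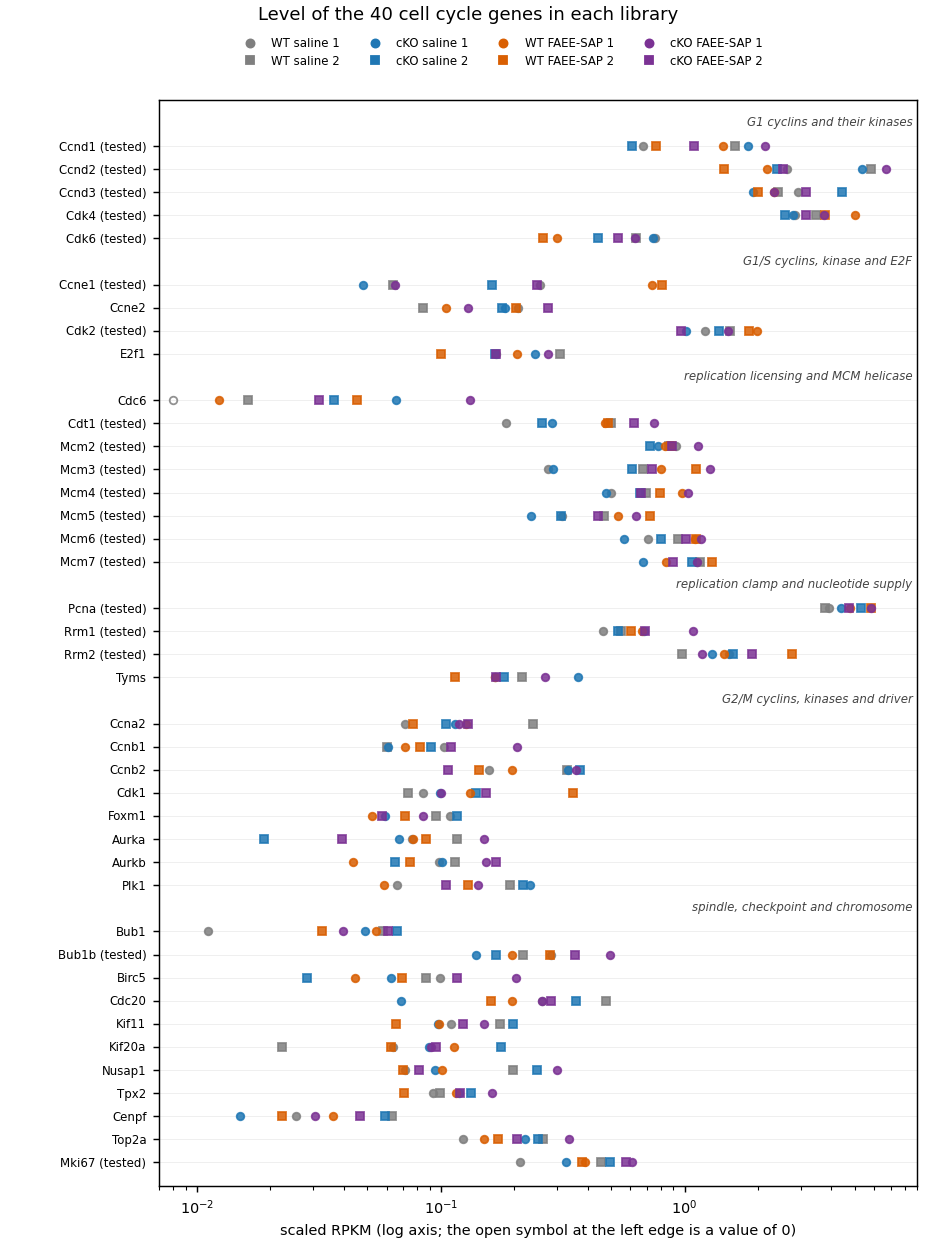
Scaled RPKM of each of the 40 genes (rows, grouped by role) in each of the 8 libraries (colour for the group, circle for replicate 1 and square for replicate 2), on a log axis. The 19 genes marked as tested passed the RPKM filter, the mitotic roles at the bottom lie under 0.7 throughout, and WT FAEE-SAP stands apart from the other groups in *Cdk6* (low) and *Ccne1* (high).

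The filter kept 19 of the 40 members, namely all 5 G1 genes, 2 of 4 G1/S genes, 7 of 8 licensing and MCM genes, 3 of 4 clamp and nucleotide genes, 0 of 8 G2/M genes and 2 of 11 spindle and chromosome genes. It uses the deposited values, which are raised as a whole in WT FAEE-SAP. *Ccne1* and *Mcm5* had both libraries of a group over the filter only in WT FAEE-SAP, and *Ccnd1*, *Cdt1*, *Mcm3*, *Mcm4*, *Rrm1* and *Mki67* only in the FAEE-SAP groups. *Bub1b* passed through 1 library of each FAEE-SAP group. Where these genes were higher with FAEE-SAP after scaling, as *Bub1b* was in cKO but not in WT, this is partly set by the filter. Counts and medians over the 19 therefore describe the genes that passed and do not stand for all 40. With no filter all 40 could be tested, and again 0 were called in each of the 5 comparisons by limma. At an unadjusted p under 0.05 there were then 5 of 40 (12.5%) with FAEE-SAP in WT against 19.9% of all genes, and 6 of 40 (15%) in cKO against 9.39%. Between genotypes there were 5 of 40 (12.5%) with FAEE-SAP against 15.7% and 1 of 40 (2.5%) with saline against 3.76%, and for the difference in response 4 of 40 (10%) against 9.73%. Median log2 fold changes over the 40 were -0.01, 0.14, 0.19, -0.05 and 0.16 in that order. The median in WT was thus close to 0 over all members, and 0.40 over the 19 that passed the filter.

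RefSeq promoter windows on GRCm38.p6, 250 bases before to 50 after the start, were at hand for 31 of the 40 members. The 3 kinds of sequence below were searched for on both strands: the CHR element of mitotic genes (TTTGAA or TTTAAA), the CCAAT box, and E2F sites (TTTCCCGC, TTTCGCGC, TTTGCCGC or TTTGGCGC). Of the 14 mitotic members with a sequence, 12 (85.7%) held a CHR match and 12 (85.7%) a CCAAT box, where the shares over all 27025 genes with a window were 30.6% and 41.1%. Of the 7 licensing and MCM members, 6 (85.7%) held an E2F match, where the share over all genes was 2.61%, and 2 of 7 (28.6%) held a CHR match. Of the 4 clamp and nucleotide supply members 0 held an E2F match, so that the replication roles together had 6 of 11 (54.5%). CCAAT boxes were in 5 of 7 (71.4%) and 3 of 4 (75%) members of these roles, a share not far from that of the mitotic members. Of the 6 G1 and G1/S members, 1 (16.7%) held an E2F match and 1 (16.7%) a CHR match. A match is a description of letters and not evidence of binding. The 150 bases before the start are shown for a G1/S kinase, an MCM subunit and a mitotic kinase, 5′ to 3′ on the strand of the gene, with the matches in capitals. None of these bases lies in an exon of its own gene in GENCODE vM21.
Cdk2: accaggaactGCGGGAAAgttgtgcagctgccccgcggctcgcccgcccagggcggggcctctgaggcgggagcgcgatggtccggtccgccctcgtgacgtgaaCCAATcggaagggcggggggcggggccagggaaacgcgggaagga
Mcm6: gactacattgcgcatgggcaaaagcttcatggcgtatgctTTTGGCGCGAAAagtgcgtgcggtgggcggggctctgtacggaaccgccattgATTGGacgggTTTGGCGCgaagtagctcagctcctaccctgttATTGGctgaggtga
Plk1: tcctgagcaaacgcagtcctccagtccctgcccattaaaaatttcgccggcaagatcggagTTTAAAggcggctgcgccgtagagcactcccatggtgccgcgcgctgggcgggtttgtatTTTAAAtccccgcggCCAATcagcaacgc

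The *Cdk2* stretch (chr10:128705052-128705201, minus strand) held 1 E2F match on the reverse strand, 140 bases before the start, and 1 CCAAT box 45 bases before it. The *Mcm6* stretch (chr1:128359706-128359855, minus strand) held 3 E2F matches, of which those at 110 and 106 bases overlap on opposite strands, and 2 CCAAT boxes on the reverse strand. The *Plk1* stretch (chr7:122159285-122159434, plus strand) held 2 CHR matches, at 89 and 29 bases, and a CCAAT box 14 bases before the start, and no E2F match. Another CHR match of *Plk1* lies 31 bases after the start, outside the stretch shown. At an unadjusted p under 0.05 in limma, *Cdk2* was lower in cKO against WT with FAEE-SAP, where 23% of all tested genes reached that p. *Mcm6* was higher at that p with FAEE-SAP in cKO, where 10.9% of all tested genes reached it. *Plk1* lay under the filter.

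No member passed the call in any comparison. FAEE-SAP against saline in WT, which asks what pancreatitis does in mice with intact *Pfkfb3*, gave 0 of 19 members called against 7.48% of all tested genes, and 2 of 19 at an unadjusted p under 0.05 against 29.1%. In cKO, 0 of 19 were called against 0.135% and 4 of 19 reached that p against 10.9%. The comparison of cKO with WT under FAEE-SAP, which asks what loss of *Pfkfb3* changes in pancreatitis, gave 0 of 19 called against 2.65%, and 3 of 19 at that p against 23%. With saline, 0 of 19 were called against 0%, and 0 of 19 reached that p against 2.63%. The difference between genotypes in the response to FAEE-SAP gave 0 of 19 called against 0.0719%, and 2 of 19 at that p against 12.6%. A precision-weighted limma fit on approximate reads (voom) called 1 of 19 members in the first comparison, *Cdk6*, against 7.99% of all genes, and 0 in the other 4. In limma, members were therefore no more often past either threshold than genes at large, apart from the unadjusted p in cKO, where 21.1% stood against 10.9%. That excess is partly set by the filter. Of its 4 members, *Bub1b*, *Cdt1* and *Mcm5* passed only through FAEE-SAP libraries, and *Mcm6* did not depend on them. With no filter the shares were 15% against 9.39%.

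Groups of 2 libraries often fail to overlap in this series, so the share over all tested genes stands beside each count. Comparisons that use the same libraries, such as those with WT FAEE-SAP, are not independent of each other. With FAEE-SAP against saline in WT, 12 of 19 members did not overlap, 9 higher and 3 lower, against 58.5% of all tested genes. In cKO, 10 of 19 did not overlap, all higher, against 42.1% in either direction. Of these, *Bub1b*, *Cdt1*, *Mcm3*, *Mcm4*, *Mcm5*, *Mki67* and *Rrm1* would not have passed the filter on saline libraries alone. The same holds for *Ccne1*, *Mcm3*, *Mcm4*, *Mcm5* and *Rrm1* among those higher in WT. The counts of higher members are therefore partly set by the filter. Between genotypes, 10 of 19 did not overlap with FAEE-SAP against 51.9%, and 6 of 19 with saline against 29.3%.

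**Figure D2:**
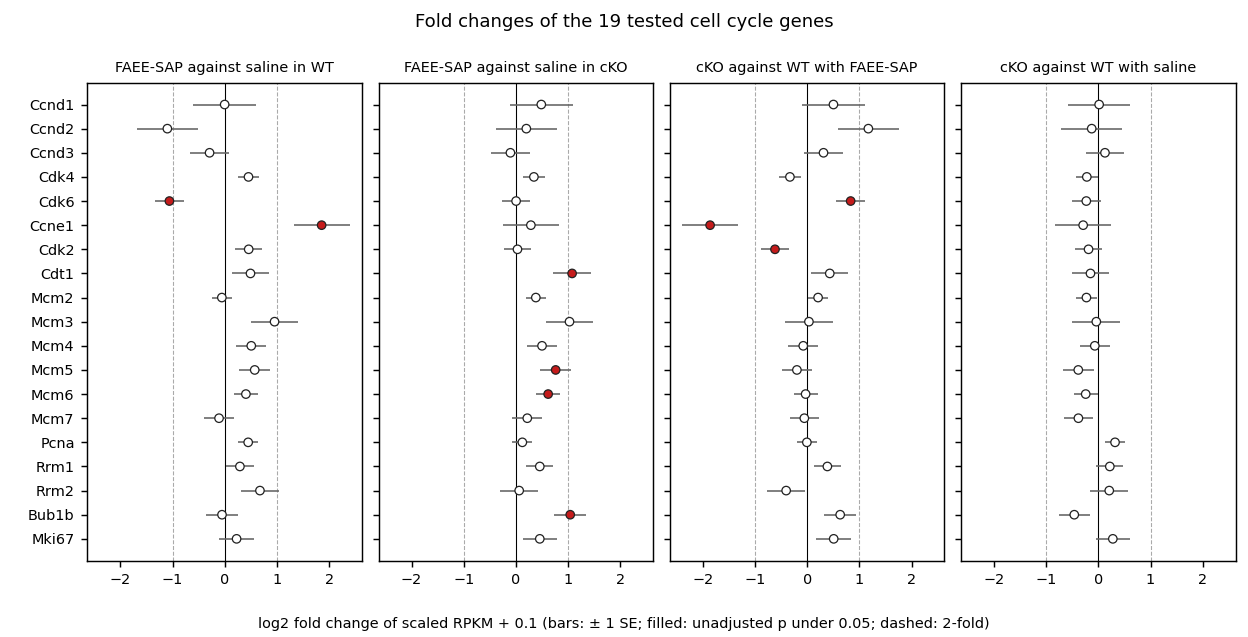
Log2 fold change of scaled RPKM + 0.1 (x axis) for the 19 tested genes (rows) in the 4 pairwise comparisons, with bars of 1 SE either side and filled points for an unadjusted p under 0.05. *Cdk6* at -1.06 and *Ccne1* at 1.85 stand out in WT, where *Ccne1* passed the filter only through the FAEE-SAP libraries. No point is filled in the comparison with saline.

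All 5 G1 genes passed the filter, and 1 of them, *Cdk6*, came closest to a call. *Cdk6*, the kinase that partners D-type cyclins together with CDK4, lies at chr5:3341485-3531008 on the plus strand (GRCm38, GENCODE vM21) and was named after its values were seen. Its scaled RPKM was 0.758 and 0.633 in WT saline against 0.299 and 0.262 in WT FAEE-SAP, while cKO libraries stood at 0.744 and 0.442 with saline and at 0.624 and 0.533 with FAEE-SAP. The WT FAEE-SAP libraries were the lowest and did not overlap with any other group. The mean was 0.280 ± 0.0263 (SD, n = 2) in WT FAEE-SAP and 0.695 ± 0.0884 in WT saline. The log2 fold change of *Cdk6* with FAEE-SAP in WT was -1.06 (SE 0.27), with an adjusted p of 0.0520 in limma with Benjamini-Hochberg adjustment, just outside the threshold. In cKO it was 0.00 (SE 0.27), and the difference between genotypes was 1.06 (SE 0.39, adjusted p = 0.343). Under FAEE-SAP, cKO stood 0.83 (SE 0.27, adjusted p = 0.134) above WT on the log2 scale. As deposited, without scaling between libraries, the WT change of *Cdk6* was 0.01, so its lower level with FAEE-SAP appears after scaling between libraries. It was called under 7 of 21 alternatives, with adjusted p between 0.0232 and 0.975 over them.

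The D-type cyclins spread widely within groups, and none of them passed the test in the fit without a replicate block. *Ccnd2*, a D-type cyclin widely used by lymphoid and stromal cells, was 2.63 and 5.83 in WT saline against 2.17 and 1.45 in WT FAEE-SAP, while cKO libraries stood at 5.36 and 2.39 with saline and at 6.70 and 2.53 with FAEE-SAP. WT saline 2, cKO saline 1 and cKO FAEE-SAP 1 were high, and both WT FAEE-SAP libraries lay below all 6 others. Its log2 fold change was -1.10 (SE 0.59, adjusted p = 0.264 in limma) with FAEE-SAP in WT and 1.17 (SE 0.59, adjusted p = 0.286) in cKO against WT with FAEE-SAP, and as deposited the WT value was 0.17. The WT value was -0.54 without WT saline 2 and -1.66 without WT saline 1. The value for cKO against WT with FAEE-SAP was 0.49 without cKO FAEE-SAP 1 and 1.86 without cKO FAEE-SAP 2. *Ccnd1* was high in the same 3 libraries, at 1.61, 1.81 and 2.13, and also at 1.44 in WT FAEE-SAP 1, and was 0.610 to 1.09 in the other 4. *Ccnd3*, the third D-type cyclin, did not follow them, with 2.93 and 2.41 in WT saline against 2.32 and 1.99 in WT FAEE-SAP, while cKO libraries stood at 1.91 and 4.42 with saline and at 2.32 and 3.14 with FAEE-SAP. Its highest library was cKO saline 2, which was among the lowest for *Ccnd1* and *Ccnd2*. *Cdk4* was 2.83 and 3.46 in WT saline against 4.98 and 3.75 in WT FAEE-SAP, while cKO libraries stood at 2.77 and 2.58 with saline and at 3.73 and 3.13 with FAEE-SAP. Both genotypes had higher *Cdk4* values with FAEE-SAP and did not overlap with their saline libraries, by log2 differences of 0.45 (SE 0.21, adjusted p = 0.197) in WT and 0.34 (SE 0.21, adjusted p = 0.574) in cKO, neither past the test. The WT difference was 0.27 without WT FAEE-SAP 1, and the cKO difference 0.22 without cKO FAEE-SAP 1.

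Cyclin E1 had the largest fold change of the 19 tested genes. Leaving aside *Cdc6* with its 0, it also had the widest range over libraries of the list. *Ccne1*, the cyclin that activates CDK2 at entry into S phase, lies at chr7:38097984-38107534 on the minus strand of the same build. It was 0.255 and 0.0635 scaled RPKM in WT saline against 0.736 and 0.806 in WT FAEE-SAP, while cKO libraries stood at 0.0481 and 0.162 with saline and at 0.0650 and 0.249 with FAEE-SAP. Both WT FAEE-SAP libraries lay above all 6 others. They held about 90.6 and 135 reads on the gene, and the other 6 held 3.0 to 19.9. *Ccne1* passed the filter only through both WT FAEE-SAP libraries, so the tests of its higher level there are partly set by the filter. The log2 fold change with FAEE-SAP was 1.85 (SE 0.54, adjusted p = 0.0697 by limma with Benjamini-Hochberg adjustment) in WT and 0.29 (SE 0.54, adjusted p = 0.875) in cKO, where it ran from -0.26 (without cKO FAEE-SAP 2) to 0.82 (without cKO FAEE-SAP 1). Under FAEE-SAP, cKO against WT gave -1.86 on the log2 scale (SE 0.54, adjusted p = 0.107). The difference between the genotypes in the response was -1.57 (SE 0.76, adjusted p = 0.451), so the response was not shown to differ between them. With 1 library left out, this difference ran from -2.16 (without WT saline 1) to -1.01 (without WT saline 2). It was -0.46 without both WT saline 2 and cKO FAEE-SAP 1.

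The partner kinase moved less. *Cdk2* was 1.21 and 1.53 in WT saline against 1.98 and 1.84 in WT FAEE-SAP, while cKO libraries stood at 1.02 and 1.38 with saline and at 1.51 and 0.968 with FAEE-SAP. WT FAEE-SAP was again the highest group and did not overlap with the others. The log2 fold change was 0.46 (SE 0.26, adjusted p = 0.292 in limma) with FAEE-SAP in WT and -0.62 (SE 0.26, adjusted p = 0.213) in cKO against WT with FAEE-SAP. Without cKO FAEE-SAP 2 the latter was -0.32. *Ccne2*, the second E-type cyclin, was 0.0846 to 0.275 over the 8 libraries and *E2f1*, the transcription factor that switches on replication genes, was 0.1001 to 0.308, and both lay under the filter. *E2f1* read 0.205 and 0.1001 in WT FAEE-SAP, within the range of the other libraries or under it, where *Ccne1* was highest.

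The licensing factors and the MCM helicase had higher values with FAEE-SAP in both genotypes for most members, without a call. *Mcm6*, a subunit of the helicase, was 0.705 and 0.942 in WT saline against 1.11 and 1.12 in WT FAEE-SAP, while cKO libraries stood at 0.567 and 0.800 with saline and at 1.17 and 1.01 with FAEE-SAP. All 4 FAEE-SAP libraries lay above all 4 saline libraries. The log2 differences of *Mcm6* were 0.40 (SE 0.23, adjusted p = 0.298 in limma) in WT and 0.62 (SE 0.23, adjusted p = 0.405) in cKO, or 0.22 without WT saline 1 and 0.40 without cKO saline 1. *Mcm5*, named after its values were seen, was 0.315 and 0.466 in WT saline against 0.534 and 0.719 in WT FAEE-SAP, while cKO libraries stood at 0.235 and 0.312 with saline and at 0.633 and 0.440 with FAEE-SAP. FAEE-SAP libraries of each genotype again lay above their own saline libraries, with log2 differences of 0.57 (SE 0.29, adjusted p = 0.246) in WT and 0.76 (SE 0.29, adjusted p = 0.411) in cKO, where the WT value was 0.35 without WT saline 1.

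Not all subunits of the same helicase shared this order, and *Mcm2* and *Mcm7* did not. *Mcm2* was 0.920 and 0.867 in WT saline against 0.830 and 0.880 in WT FAEE-SAP, while cKO libraries stood at 0.779 and 0.719 with saline and at 1.13 and 0.888 with FAEE-SAP, with a log2 difference of -0.06 (SE 0.19) in WT and 0.38 (SE 0.19, adjusted p = 0.522 in limma) in cKO, or 0.22 without cKO FAEE-SAP 1. *Mcm7*, another subunit, which shares exonic bases with *Mir25* and *Mir93* on its own strand, was 1.13 and 1.15 in WT saline against 0.842 and 1.30 in WT FAEE-SAP, while cKO libraries stood at 0.675 and 1.07 with saline and at 1.13 and 0.899 with FAEE-SAP. The *Mcm7* groups overlapped between treatments in both genotypes. *Mcm3* and *Mcm4* ranged from 0.276 to 1.27 and from 0.475 to 1.03, and their FAEE-SAP libraries lay above the saline libraries in each genotype. *Cdt1*, which loads the helicase with CDC6, was named after its values were seen and was 0.185 and 0.498 in WT saline against 0.473 and 0.487 in WT FAEE-SAP, while cKO libraries stood at 0.285 and 0.259 with saline and at 0.750 and 0.623 with FAEE-SAP. Its log2 difference in cKO was 1.08 (SE 0.36, adjusted p = 0.359 in limma), the largest of the 19 tested genes with a pseudocount of 0.1. In WT it was 0.49 (SE 0.36, adjusted p = 0.417), and the libraries overlapped. The WT value was -0.04 without WT saline 1 and 1.03 without WT saline 2.

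*Pcna* was the member with the highest mean level and the steadiest, with a ratio of 1.55 between its highest and lowest library. It was 3.91 and 3.75 in WT saline against 4.77 and 5.79 in WT FAEE-SAP, while cKO libraries stood at 4.37 and 5.29 with saline and at 5.81 and 4.72 with FAEE-SAP. WT saline held its lowest values and did not overlap with the other groups, which overlapped among themselves. The log2 difference was 0.45 (SE 0.19, adjusted p = 0.177 in limma) with FAEE-SAP in WT and 0.12 (SE 0.19, adjusted p = 0.849) in cKO, where it ran from -0.02 to 0.26 when 1 library was left out. *Rrm2*, the small subunit of ribonucleotide reductase, was 1.52 and 0.976 in WT saline against 1.45 and 2.75 in WT FAEE-SAP, while cKO libraries stood at 1.29 and 1.57 with saline and at 1.17 and 1.89 with FAEE-SAP. Its groups overlapped in every comparison, and the high value of WT FAEE-SAP 2 was not shared by its replicate. *Rrm1*, the large subunit, was 0.462 and 0.546 in WT saline against 0.668 and 0.606 in WT FAEE-SAP, while cKO libraries stood at 0.679 and 0.533 with saline and at 1.08 and 0.686 with FAEE-SAP. Its log2 difference was 0.46 (SE 0.26, adjusted p = 0.556) in cKO, 0.16 without cKO FAEE-SAP 1 and 0.75 without cKO FAEE-SAP 2. *Tyms*, thymidylate synthase, was not tested and ranged from 0.114 to 0.364, lowest in WT FAEE-SAP 2.

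The G2/M cyclins and kinases all lay under the filter. *Ccnb2*, a mitotic B-type cyclin, was 0.157 and 0.329 in WT saline against 0.196 and 0.143 in WT FAEE-SAP, while cKO libraries stood at 0.332 and 0.373 with saline and at 0.359 and 0.108 with FAEE-SAP, each on 4.9 to 15.9 reads. *Plk1*, the Polo kinase, was 0.0660 and 0.192 in WT saline against 0.0588 and 0.129 in WT FAEE-SAP, while cKO libraries stood at 0.233 and 0.218 with saline and at 0.142 and 0.106 with FAEE-SAP. The treatment groups of *Ccnb2* overlapped in both genotypes, and those of *Plk1* in WT. *Cdk1*, the kinase of mitosis, was 0.0843 and 0.0736 in WT saline against 0.131 and 0.348 in WT FAEE-SAP, while cKO libraries stood at 0.0991 and 0.139 with saline and at 0.101 and 0.154 with FAEE-SAP. Its highest value, in WT FAEE-SAP 2, rested on about 108 reads and was not matched by the other WT FAEE-SAP library. With the filter lowered to 0.1 RPKM, its log2 fold change with FAEE-SAP in WT was 0.87 (SE 0.37, adjusted p = 0.187 in limma). *Ccna2*, *Ccnb1*, *Foxm1*, *Aurka* and *Aurkb* ranged from 0.0189 to 0.238 scaled RPKM. *Ccna2*, *Kif20a*, *Ccne2*, *Cdk4* and *Ccnd1* share 10% or more of their exonic bases with a gene on the opposite strand, and how the authors' counting used strand is not given in the sources used here.

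Of the spindle and chromosome genes, *Bub1b* and *Mki67* were tested. *Bub1b*, the spindle checkpoint kinase BUBR1, was 0.283 and 0.217 in WT saline against 0.197 and 0.281 in WT FAEE-SAP, while cKO libraries stood at 0.140 and 0.168 with saline and at 0.494 and 0.357 with FAEE-SAP. The cKO FAEE-SAP libraries were the highest and did not overlap with any group, and the cKO saline libraries were the lowest. The log2 fold change with FAEE-SAP was 1.04 (SE 0.30, adjusted p = 0.308 in limma) in cKO and -0.05 (SE 0.30) in WT, and the difference between them was 1.09 (SE 0.43, adjusted p = 0.368). *Mki67*, which encodes the proliferation antigen Ki-67, was 0.212 and 0.453 in WT saline against 0.392 and 0.380 in WT FAEE-SAP, while cKO libraries stood at 0.326 and 0.495 with saline and at 0.609 and 0.573 with FAEE-SAP. Its log2 difference was 0.46 (SE 0.33, adjusted p = 0.639) in cKO and 0.23 (SE 0.33, adjusted p = 0.707) in WT. Leaving out 1 library at a time, it ran from 0.21 (without cKO saline 1) to 0.70 (without cKO saline 2) in cKO and from -0.19 (without WT saline 1) to 0.64 (without WT saline 2) in WT. With FAEE-SAP, cKO lay above WT by 0.51 (SE 0.33, adjusted p = 0.411) without overlap, whereas as deposited this difference was -0.31. *Cdc20*, the activator of the anaphase complex, was 0.259 and 0.475 in WT saline against 0.196 and 0.160 in WT FAEE-SAP, while cKO libraries stood at 0.0685 and 0.359 with saline and at 0.259 and 0.284 with FAEE-SAP, with both saline groups wider than the distance between treatments. The remaining 8 genes of this role, among them *Top2a* (0.124 to 0.334) and *Birc5* (0.0282 to 0.204), had no value over 0.334.

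Summed over the 19 mitotic genes, the level differed within groups as well as between them. The sum in scaled RPKM was 2.12 and 3.33 in WT saline against 2.25 and 2.40 in WT FAEE-SAP, while cKO libraries stood at 2.35 and 3.31 with saline and at 3.99 and 2.94 with FAEE-SAP, on 210 to 801 reads. Groups overlapped for each treatment comparison. With FAEE-SAP both cKO sums lay above both WT sums, whereas as deposited they lay below, at 4.17 and 2.87 against 4.56 and 4.64. A 95% exact Poisson interval of the summed reads was carried over to each sum. It treats reads on short and long genes alike, so it understates the counting error of a sum of values per length. In all groups except WT FAEE-SAP the 2 libraries lay outside each other's interval. The cKO FAEE-SAP 1 sum was the highest, but these intervals cannot rank it against the next highest sums. The summed level of the 8 licensing and MCM genes was 4.03 and 5.31 in WT saline against 5.57 and 6.46 in WT FAEE-SAP, while cKO libraries stood at 3.37 and 4.46 with saline and at 7.25 and 5.29 with FAEE-SAP. For this role each genotype had higher sums with FAEE-SAP than with saline, without overlap.

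Markers of immune, vessel and stromal cells were high in some of these libraries. cKO FAEE-SAP 1 held the highest value for 18 of the 40 members, and 12.2% of all tested genes had their highest value there. Within WT saline 27 of 40 members were higher in replicate 2, within cKO saline 24 of 40 were higher in replicate 2, within WT FAEE-SAP 20 of 40 were, and within cKO FAEE-SAP 29 of 40 were higher in replicate 1. Over all tested genes, 50.6% to 52.3% were higher in replicate 1 in the 4 groups. The sum of 8 T cell markers was 7.78 and 18.5 in WT saline against 8.81 and 7.26 in WT FAEE-SAP, while cKO libraries stood at 6.56 and 5.18 with saline and at 13.8 and 5.13 with FAEE-SAP, so that WT saline 2 and cKO FAEE-SAP 1 were the highest. cKO saline 2, with a mitotic sum of 3.31 close to that of WT saline 2, was among the lowest for T cell markers. WT saline 2 was the highest library for 8 of 8 T cell and 6 of 7 B cell markers, and none of these markers was at 0 in any library. The sum of 8 macrophage markers was highest in cKO FAEE-SAP, at 123 and 107, against 68.7 to 95.3 in the other 6 libraries, and neutrophil markers summed to 53.6 to 58.8 in WT FAEE-SAP, 12.4 to 19.8 in cKO FAEE-SAP and 1.45 to 3.73 with saline. Other markers were also highest in cKO FAEE-SAP 1, with sums of 18.7 against 12.03 to 15.0 in the other libraries for 6 endothelial markers, 76.0 against 53.4 to 69.6 for 8 fibroblast and stellate markers, and 116 against 36.3 to 62.5 for 6 plasma cell markers. The part of these cells in the levels of the cell cycle genes was not tested. WT saline 2 and cKO FAEE-SAP 1 were also left out together, a choice made after seeing the data, and 18 members then passed the filter. This leaves 1 library in each of their groups, so only effect sizes are given, and their SEs rest on the spread of the other groups. The log2 difference of *Ccnd2* in cKO against WT with FAEE-SAP was then 0.50 (SE 0.52), that of *Ccne1* with FAEE-SAP in WT 1.29 (SE 0.44), and that of *Cdk6* -1.19 (SE 0.37).

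**Figure D3:**
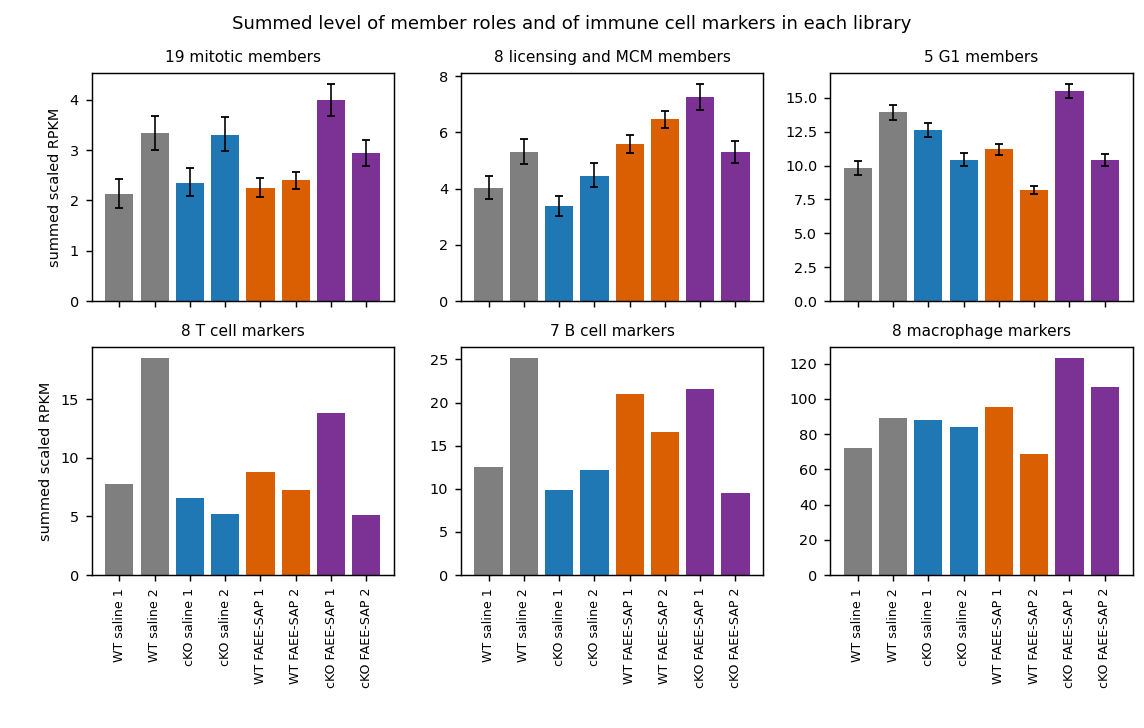
Summed scaled RPKM (y axes, from 0) of 3 member roles (top row) and of 3 immune marker lists (bottom row, no interval) in each of the 8 libraries, coloured by group. Bars of the top row carry 95% Poisson intervals of the summed reads, which understate the counting error of these sums. The mitotic sum is highest in cKO FAEE-SAP 1 (3.99) and WT saline 2 (3.33), the libraries with the highest T cell sums (13.8 and 18.5), followed by cKO saline 2 (3.31), whose T cell sum is low (5.18).

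How the libraries were scaled decided whether the list appeared to change. As deposited, the median log2 fold change with FAEE-SAP in WT was 1.23 over all tested genes and 1.57 over the 19 members, and 14 members were called higher together with 64.7% of all tested genes. After scaling, these medians were 0.01 and 0.40, and no member was called. In cKO the medians as deposited were 0.57 over all genes and 0.95 over the members, with 3 of 19 members called, *Bub1b*, *Cdt1* and *Mcm6*, against 6.69% of all tested genes, and after scaling they were -0.02 and 0.38. For cKO against WT with FAEE-SAP the medians as deposited were -0.90 and -0.86, with 5 of 19 members called, *Ccne1*, *Cdk2*, *Cdk4*, *Mcm5* and *Rrm2*, all lower, against 40.01% of all tested genes, and after scaling they were 0.01 and 0.03. Relative to the median of all genes, 12 of 19 members lay above it in WT and 7 below, with or without scaling. In cKO 18 of 19 lay above it after scaling and 16 of 19 as deposited. Between genotypes 10 of 19 did with FAEE-SAP and 5 of 19 with saline, under both. The filter partly sets the counts with FAEE-SAP. With no filter, 18 of 40 members were above 0 in WT and 31 of 40 in cKO. As deposited all genes shift together, so a sign that turned there only places a member within that shift of 0. No share over all genes stands beside the counts of kept signs that follow. The sign of the fold change was the same under all 4 scalings for 12 of 19 members in WT, 16 of 19 in cKO, 11 of 19 between genotypes with FAEE-SAP, 15 of 19 with saline and 9 of 19 for the difference in response between genotypes. For that difference the median over the 19 was 0.19 after scaling and -0.45 as deposited, where the medians over all genes were 0.02 and -0.63. Without WT saline 2 and cKO FAEE-SAP 1 the scaled median of this difference was -0.22, with 6 of 18 members above 0 in place of 13 of 19, so its sign rests on these 2 libraries.

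**Figure D4:**
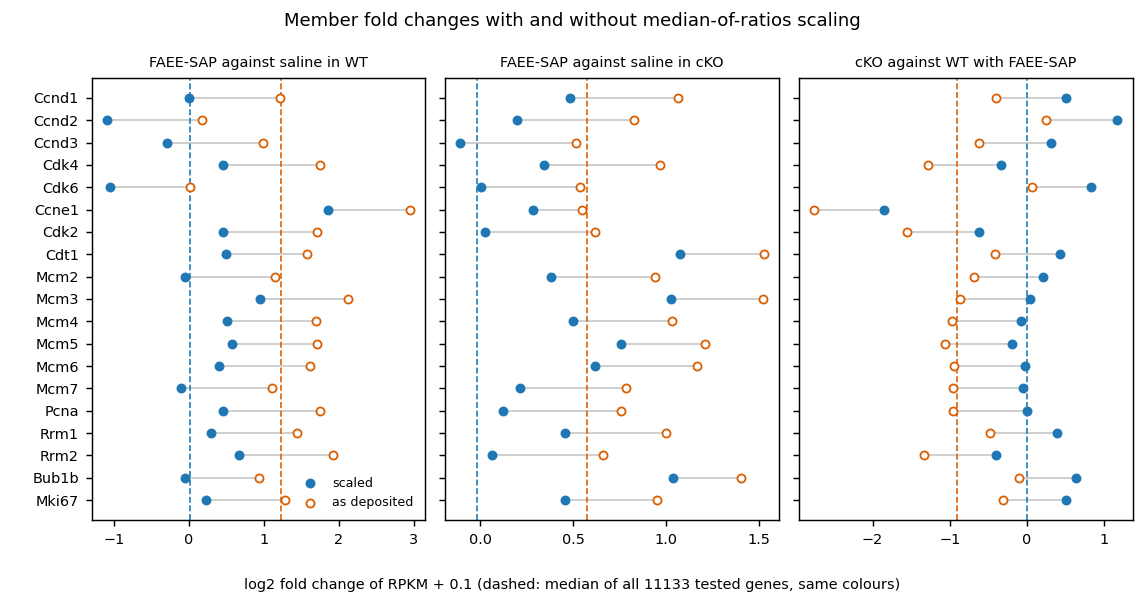
Log2 fold change of RPKM + 0.1 (x axis) of the 19 tested genes (rows) after median-of-ratios scaling (filled blue) and as deposited (open orange) in 3 comparisons, with dashed lines at the median of all 11133 tested genes. Between the scalings the members shift together with that median, by about the distance from 0.01 to 1.23 in WT.

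In other lists of the pathway, 2 genes were called. Of 30 further S phase genes 13 passed the filter and 0 were called in any of the 5 comparisons, with medians of 0.57 in WT and 0.44 in cKO for FAEE-SAP against saline on the log2 scale. These medians cover genes that passed a filter on the deposited values, and over all 30 with no filter they were 0.23 and 0.31. In WT 2 of these 13 were at an unadjusted p under 0.05, where the share over all tested genes was 29.1% and that of genes called 7.48%. Of 40 further G2/M genes 8 passed, 4 of them were at that p in WT, and 1 was called, lower with FAEE-SAP in WT. This was *Spc24*, a subunit of the kinetochore NDC80 complex, at 0.969 and 0.814 in WT saline against 0.176 and 0.129 in WT FAEE-SAP, while cKO libraries stood at 1.04 and 0.390 with saline and at 0.744 and 0.934 with FAEE-SAP. Its log2 fold change in WT was -1.98 (SE 0.39, adjusted p = 0.0258 in limma with Benjamini-Hochberg adjustment), and -1.01 as deposited. Of 18 CDK inhibitors, pocket proteins and arrest genes 16 passed, 5 of them were at that p in WT, and 1 was called, *Gadd45a*, a stress gene that restrains the G2 to M transition, which rose in WT from 0.302 and 0.527 to 1.17 and 2.52 (log2 fold change 1.86, SE 0.40, adjusted p = 0.0310). In cKO *Gadd45a* was 0.411 and 0.299 with saline and 0.393 and 0.545 with FAEE-SAP, and the difference between the genotypes was -1.54 (SE 0.56, adjusted p = 0.343). *Cdkn1a*, which encodes the CDK inhibitor p21 and was named after its values were seen, stood far above all 40 members at 12.9 to 29.3 scaled RPKM in the 8 libraries, and was not called in any comparison after scaling.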

How the data were processed

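RNA-Seq libraries of mouse pancreas were assigned to 4 groups by their labels. The authors prepared libraries with a directional kit, filtered reads with fastp, mapped them to Ensembl GRCm38.p6 in CLC Genomics Workbench and deposited RPKM. How RPKM was computed, and whether strand was used, is not given in the sources used here. Reads per gene were worked out from RPKM, exonic length in GENCODE vM21 and library total, and are approximate: 84.5% to 85.8% of low values came out whole within 0.1 reads.

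Values were scaled by the median of ratios over the 10985 tested genes above 0 in all libraries. All 8 libraries entered 1 model of log2(scaled RPKM + 0.1) in limma 3.58.1 (R 4.3.3) with an intensity trend, on genes with at least 0.5 RPKM in at least 2 libraries. The procedure was tested on simulated data. Fold changes are on that log2 scale and understate changes of low genes. A call needed a Benjamini-Hochberg adjusted p under 0.05 over all tested genes and a 2-fold change. With 2 libraries a group, an exact permutation test cannot go below 0.33. Intervals and floors cover counting error only, and the intervals of summed levels understate it. The 40 members and all lists were chosen with earlier results of these data known. Values in every library are given for called members and, per role, for up to 3 others with the highest mean, and genes outside this rule are marked. In the other lists, up to 3 called genes per list, comparison and direction were named. Alternatives are listed in the closing section. Figures were drawn in matplotlib 3.10.9 under Python 3.11.15, from tables made by pandas 2.3.3 and numpy 2.4.6.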

Additional observations from a re-analysis of the deposited data

Results flagged for a closer look

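Members that lay under the filter were compared by their libraries alone. In 2 of them, *Aurkb* and *Birc5*, both named after their values were seen, each FAEE-SAP library was, after scaling, below each saline library in WT and above each in cKO. As deposited, *Birc5* was higher with FAEE-SAP in both genotypes and the WT groups of *Aurkb* overlapped. *Aurkb*, the Aurora kinase of the chromosomal passenger complex, was 0.0986 and 0.115 in WT saline, 0.0439 and 0.0750 in WT FAEE-SAP, 0.101 and 0.0650 in cKO saline, and 0.153 and 0.169 in cKO FAEE-SAP, on 4.0 to 14.9 reads. The ratio of FAEE-SAP to saline means in cKO was 3.47 times that in WT. *Birc5*, which encodes survivin of the same complex, was 0.0996 and 0.0869 in WT saline, 0.0443 and 0.0696 in WT FAEE-SAP, 0.0627 and 0.0282 in cKO saline, and 0.204 and 0.117 in cKO FAEE-SAP, on 2.0 to 20.1 reads, with a corresponding ratio of 5.78. Of the 20 members under the filter with a value above 0 in every library, these 2 (10%) moved in opposite ways without overlap, against 6.03% of the 3152 genes of the same kind. Of the 19 tested members 0 did so, against 5.67% of all tested genes. These ratios themselves were not tested. With the filter lowered to 0.1 RPKM, the difference between genotypes in the log2 response was 0.87 (SE 0.38, adjusted p = 0.446) for *Aurkb* and 1.11 (SE 0.42, adjusted p = 0.401) for *Birc5* in limma with Benjamini-Hochberg adjustment. The reason for the pattern was not tested.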

How the results depend on the processing

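The count of members called stood at 0 in each of the 5 comparisons and moved under these settings. As deposited it was 14 in WT, 3 in cKO and 5 in cKO against WT with FAEE-SAP, where 64.7%, 6.69% and 40.01% of all genes were called. For FAEE-SAP against saline in WT it was 1, *Cdk6*, with quantile normalization, with a pseudocount of 0.01, without the trend, and with voom, where 7.16% to 7.99% of all genes were called. Leaving out each library in turn leaves 1 library in a group, so no count of calls is given for these fits. The log2 fold change of *Cdk6* in WT ran from -1.18 to -0.954 over them. At an unadjusted p under 0.05 and at least 2-fold, it was 2 in WT against 11.4% of all genes, 2 in cKO against 3.29%, 1 in cKO against WT with FAEE-SAP against 7.87% and 2 for the difference between genotypes against 7.02%. Across genes, same-numbered replicates deviated from their group means with correlations between -0.52 and 0.40, so the numbers do not pair the libraries. With replicate number as a block the count was 0 in every comparison, and with the WT saline numbers exchanged, a pairing chosen after seeing the data under which all 6 correlations are positive (0.175 to 0.522), it was 3 in WT (*Ccnd2*, *Ccne1*, *Cdk6*) against 10.7% of all genes and 2 in cKO against WT with FAEE-SAP (*Ccnd2*, *Ccne1*) against 6.56%. As deposited, the sign turned for 7 of 19 members in WT, 1 in cKO, 8 between genotypes with FAEE-SAP, 4 with saline and 10 for the difference in response. Among them were *Ccnd3* (-0.63) and *Mki67* (-0.31) in cKO against WT with FAEE-SAP and *Cdk6* (0.0092) in WT. These turns go with the common shift of all genes as deposited, and their share over all genes is not given here. The trimmed mean of log ratios, other filters, a pseudocount of 1 and no fold minimum left the count at 0, as did the fit on 4 libraries in the 4 pairwise comparisons. Causes were not tested. Depth limits the mitotic genes most, and 20 of the 21 genes under the filter had fewer than 100 reads in every library.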
